A study of Homo sapiens with 8 samples.

Results

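The p53-linked DNA repair genes are 8 genes, DDB2, XPC, ERCC5, RRM2B, POLH, POLK, REV3L and FANCC, taken by symbol from the 25369 genes of the count table. All 8 had enough reads to be tested, as did 15879 genes in all. The data are poly(A) RNA sequencing of CHP212, a human neuroblastoma cell line that carries high MYCN expression. Cells with FAM193A knocked out (KO) and unmodified cells (WT) received either 10 uM Nutlin-3a or 0.2% DMSO, the vehicle, and were taken after 12 h. Nutlin-3a is a small molecule that blocks the MDM2 pocket that binds p53. The 4 groups, KO Nutlin-3a, KO DMSO, WT Nutlin-3a and WT DMSO, had 2 biological replicates each, made independently. A single KO population is labelled and its edit is not described, so loss of FAM193A cannot be told apart from other properties of that population.

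The transcription factor p53 raises genes of several DNA repair routes in human cells, besides its better known genes of arrest and cell death. In nucleotide excision repair, DDB2 and XPC recognise bulky lesions in the genome and ERCC5 (XPG) is one of the nucleases that cut the damaged strand. RRM2B (p53R2) is a small subunit of ribonucleotide reductase, the enzyme that makes deoxynucleotides, and serves outside S phase, when its relative RRM2 is low. POLH, POLK and REV3L are polymerases that copy past lesions, and FANCC belongs to the core complex of the Fanconi anemia pathway of crosslink repair.

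Promoter windows of DDB2, XPC and POLH, 3 of the 5 members that rose under Nutlin-3a, are shown. They set a window with a p53 match beside windows of induced genes in which none was found. RefSeq windows on GRCh38.p14, running from 250 bases before to 50 after an annotated start, were found for 7 of the 8 genes, all but RRM2B, with more than 1 start for some. Each window was searched on both strands for the p53 consensus, a pair of 10-base half-sites with a spacer of at most 13 bases. In the DDB2 window the half-sites are in capitals. In the XPC and POLH windows the capitals mark the GC box GGGCGG, or CCGCCC on the other strand, a common promoter motif. The DDB2 window holds 3 GC boxes as well, left in lower case, against 1 for XPC and 3 for POLH.
DDB2, second annotated start, chr11:47214724-47215023, plus strand: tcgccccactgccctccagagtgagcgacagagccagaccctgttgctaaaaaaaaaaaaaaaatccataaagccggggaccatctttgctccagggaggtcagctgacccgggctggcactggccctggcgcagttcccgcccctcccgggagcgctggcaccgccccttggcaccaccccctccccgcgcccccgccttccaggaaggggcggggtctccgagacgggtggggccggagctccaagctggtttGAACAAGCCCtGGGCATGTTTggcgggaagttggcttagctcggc
XPC, chr3:14178552-14178851, minus strand: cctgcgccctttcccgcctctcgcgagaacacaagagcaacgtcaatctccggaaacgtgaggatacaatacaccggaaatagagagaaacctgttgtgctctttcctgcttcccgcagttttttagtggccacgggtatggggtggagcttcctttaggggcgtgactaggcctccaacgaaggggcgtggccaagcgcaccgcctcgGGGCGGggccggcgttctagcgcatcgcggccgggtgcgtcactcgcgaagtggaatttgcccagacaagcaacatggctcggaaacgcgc
POLH, chr6:43575935-43576234, plus strand: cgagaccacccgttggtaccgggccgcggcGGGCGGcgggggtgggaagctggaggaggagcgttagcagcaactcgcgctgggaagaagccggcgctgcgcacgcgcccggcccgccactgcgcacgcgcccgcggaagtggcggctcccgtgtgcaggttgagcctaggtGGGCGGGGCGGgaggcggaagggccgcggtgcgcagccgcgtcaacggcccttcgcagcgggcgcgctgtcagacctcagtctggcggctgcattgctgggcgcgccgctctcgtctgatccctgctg

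DDB2 was the member with an exact full p53 match, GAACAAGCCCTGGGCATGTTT at chr11:47214979-47214999, with a spacer of 1 base. Its half-sites lie at bases 6 to 15 and 17 to 26 counted from the first transcribed base. An exact full match was in 10 of 35116 RefSeq windows (0.0285%), and a single exact half-site was in 6.63% of them. No exact half-site was found in the windows of the other 6 genes searched. Sequence outside these windows, such as introns, was not searched. A missing match here therefore does not show that a gene lacks a p53 site. The GC box, on either strand, was in 45% of all windows. Apart from DDB2, 3 genes with an exact full match were tested. PTCHD4 rose under Nutlin-3a by 0.94 (log2) in KO cells and 1.75 in WT cells, MCC rose by 0.29 in KO and 1.68 in WT cells, and DYNC2H1 fell by 0.24 in KO cells (edgeR adjusted p = 0.00616) and had a log2 fold change of -0.07 in WT cells (adjusted p = 0.391).

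Levels across groups are given as CPM, read counts over library totals scaled by the TMM method, and fold changes are log2 values from edgeR's quasi-likelihood fit with a standard error (SE). A gene is called at a Benjamini-Hochberg adjusted p under 0.05 over all 15879 genes. Read totals were 28390405 to 38010075 per library. FAM193A itself still had reads in the KO libraries, at 40.1 ± 2.76 CPM in KO Nutlin-3a, 33.5 ± 1.84 in KO DMSO, 47.4 ± 4.17 in WT Nutlin-3a and 42.0 ± 2.95 in WT DMSO cells (SD, n = 2 each), and KO against WT was -0.24 under Nutlin-3a and -0.33 under DMSO, both called. The p53 target CDKN1A rose by 5.12 in KO and 5.39 in WT cells under Nutlin-3a, and MDM2 rose by 3.38 in KO and 4.61 in WT cells. All 9 neuroblastoma markers had reads in every library, but some differed widely with genotype: DBH had 928 to 1311 reads in KO and 10 to 26 in WT libraries, TH 347 to 455 in KO and 6344 to 14512 in WT, and PHOX2A 1627 to 2415 in KO and 219 to 381 in WT. The 7 blood markers summed to 0.493 to 2.49 CPM with CD3E and HBG1 at 0 reads in all 8 libraries. Summed epithelial markers, 7 genes, differed with genotype, at 247 to 296 CPM in KO and 687 to 931 in WT libraries, and the 6 fibroblast markers stood at 6750 to 7577 in KO and 5178 to 5969 in WT libraries. COL1A1 and COL3A1 carry that sum. LUM, with 2637 to 5326 reads in KO and 8076 to 11209 in WT, went the other way. So did PDGFRB, with 2504 to 4077 reads in KO and 5136 to 5753 in WT. The 4 endothelial markers summed to 7.33 to 9.43 CPM in KO and 2.82 to 5.73 in WT libraries, the highest WT value being that of WT Nutlin-3a replicate 1. These sums use unscaled totals. Their part in the differences between genotypes was not tested. A few genes of other lineages differed widely within a pair of replicates. COL1A2 had 268 reads in WT DMSO replicate 2 against 13 in replicate 1. TEK had 90 in WT Nutlin-3a replicate 1 against 0 in replicate 2 and 0 in both WT DMSO replicates. CDH1 had 55 in WT Nutlin-3a replicate 1 against 0 in replicate 2 and 12 in KO Nutlin-3a replicate 2 against 0 in replicate 1. A fit with these 3 libraries left out together keeps 1 library in every group but KO DMSO. Its spread rests on that pair alone, so its calls cannot show whether these reads matter.

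Under Nutlin-3a, 5 of the 8 genes rose in KO cells (DDB2, RRM2B, POLH, XPC and REV3L) and 1, FANCC, fell. The same 5 rose and the same 1 fell in WT cells. Over all genes tested, 38.7% were called in KO cells, 18.1% of genes higher and 20.6% lower, and 58.6% in WT cells, 29.4% higher and 29.2% lower. In such bulk RNA, more RNA per cell and more cells that express a gene cannot be told apart. For 71.5% of all genes tested the KO Nutlin-3a and KO DMSO libraries did not overlap in CPM. In the WT response this share was 76.2%. For KO against WT it was 79.1% under Nutlin-3a and 82.4% under DMSO. Libraries lying apart, as given for single genes below, was thus common to most genes tested. The median log2 fold change of the 8 was 1.05 in KO and 1.37 in WT cells, against medians of -0.01 and 0.02 over all genes tested. The 8 were chosen as p53-linked and with earlier results of these data known, so these medians describe the choice as well. The 8 genes took 0.0880% and 0.0853% of reads in the KO Nutlin-3a libraries, 0.0368% and 0.0367% in KO DMSO, 0.116% and 0.126% in WT Nutlin-3a, and 0.0420% and 0.0397% in WT DMSO.

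**Figure D1:**
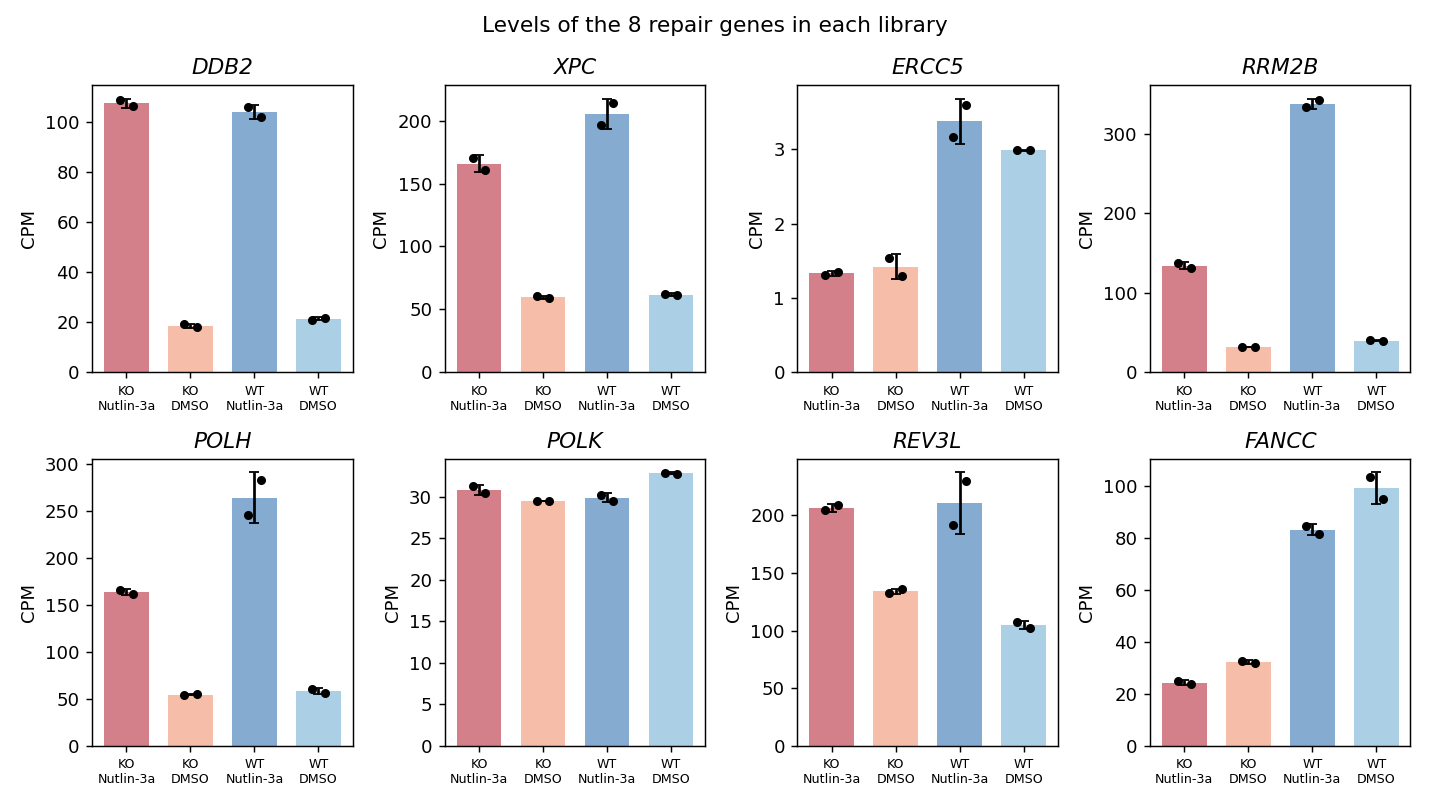
CPM of each of the 8 genes (vertical axis, from 0) in KO Nutlin-3a, KO DMSO, WT Nutlin-3a and WT DMSO cells. Bars are means, error bars the SD and points the 2 libraries; DDB2 stands at 102 to 109 CPM in the 4 Nutlin-3a libraries, while RRM2B is far higher in WT than in KO Nutlin-3a libraries.

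DDB2, the subunit of the UV-damaged DNA-binding complex that touches the lesion, had 109 and 106 CPM in KO Nutlin-3a cells, 19.1 and 18.0 in KO DMSO cells, 106 and 102 in WT Nutlin-3a cells and 20.9 and 21.7 in WT DMSO cells. The Nutlin-3a libraries were all above the DMSO libraries, and KO and WT cells lay close together under each treatment. In KO cells DDB2 rose by 2.54 (log2, SE 0.06, 95% interval 2.42 to 2.66, adjusted p = 1.52e-16), a 5.80-fold change. In WT cells it rose by 2.29 (SE 0.06, adjusted p = 2.17e-16), 4.88-fold. DDB2 was the only one of the 5 induced members whose response was larger in KO cells, by 0.25 (SE 0.08, adjusted p = 0.0308). That difference lost its call in 9 of 19 alternatives, with adjusted p from 0.0109 to 0.161, and among single libraries left out it was lost without KO Nutlin-3a replicate 1 or 2, KO DMSO replicate 2, or WT DMSO replicate 1 or 2.

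XPC, which opens repair across the whole genome by binding distorted DNA, had 171 and 161 CPM in KO Nutlin-3a cells, 60.5 and 58.8 in KO DMSO cells, 197 and 214 in WT Nutlin-3a cells and 62.4 and 61.0 in WT DMSO cells. Both KO Nutlin-3a libraries lay below both WT Nutlin-3a libraries. XPC rose by 1.48 in KO cells (SE 0.05, adjusted p = 8.28e-14) and by 1.74 in WT cells (SE 0.05, adjusted p = 3.44e-15). Its response was smaller in KO cells by 0.26 (log2, KO response minus WT response -0.26, SE 0.07, adjusted p = 0.0137). The call was lost in 8 of 19 alternatives, with adjusted p from 8.88e-05 to 0.103, including without KO Nutlin-3a replicate 2, KO DMSO replicate 1 or WT DMSO replicate 2.

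ERCC5, the nuclease that cuts 3′ of a lesion, was by far the least read member, with 48 and 45 reads in KO Nutlin-3a, 55 and 50 in KO DMSO, 96 and 100 in WT Nutlin-3a and 91 and 85 in WT DMSO libraries. In CPM these were 1.30 and 1.35 in KO Nutlin-3a, 1.54 and 1.30 in KO DMSO, 3.16 and 3.59 in WT Nutlin-3a and 2.99 and 2.98 in WT DMSO cells. The KO libraries were all below the WT libraries, and the KO treatments overlapped. Neither response was called, at -0.09 in KO cells (95% interval -0.57 to 0.39, adjusted p = 0.792) and 0.18 in WT cells (-0.23 to 0.58, adjusted p = 0.453). The level is uncertain, since GENCODE v29 places 63.2% of the exon bases of ERCC5 within the read-through gene BIVM-ERCC5 on the same strand, and that gene is listed with 0 reads in 7 libraries and 1 read in KO Nutlin-3a replicate 2.

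RRM2B gave the widest separation of KO from WT under Nutlin-3a among the 5 induced members. It had 137 and 131 CPM in KO Nutlin-3a cells, 31.9 and 31.5 in KO DMSO cells, 333 and 342 in WT Nutlin-3a cells and 39.9 and 38.8 in WT DMSO cells. No 2 groups overlapped, and the order from high to low was WT Nutlin-3a, KO Nutlin-3a, WT DMSO, KO DMSO. The rise was 2.08 in KO cells (SE 0.05, adjusted p = 3.58e-16), 4.23-fold, and 3.10 in WT cells (SE 0.05, adjusted p = 5.51e-19), 8.57-fold. The difference of the responses was -1.02 (SE 0.07, 95% interval -1.17 to -0.87, adjusted p = 9.47e-09), and its call held in all 19 alternatives.

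RRM2, the small subunit of ribonucleotide reductase that serves S phase, moved the other way, with a fold change of -1.79 in KO cells (adjusted p = 1.35e-15) and -3.09 in WT cells (adjusted p = 1.05e-18). Per length, as RPKM (reads scaled to gene length and library depth), RRM2B over RRM2 was 1.51 and 1.41 in KO Nutlin-3a libraries, 0.1004 and 0.0992 in KO DMSO, 7.86 and 8.02 in WT Nutlin-3a and 0.114 and 0.104 in WT DMSO libraries. RRM2B was thus above RRM2 in the 4 Nutlin-3a libraries and far below it in the 4 DMSO libraries. RRM1, the large subunit of the enzyme and a gene chosen here after its values were seen, fell by 0.82 in KO and by 1.36 in WT cells.

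**Figure D2:**
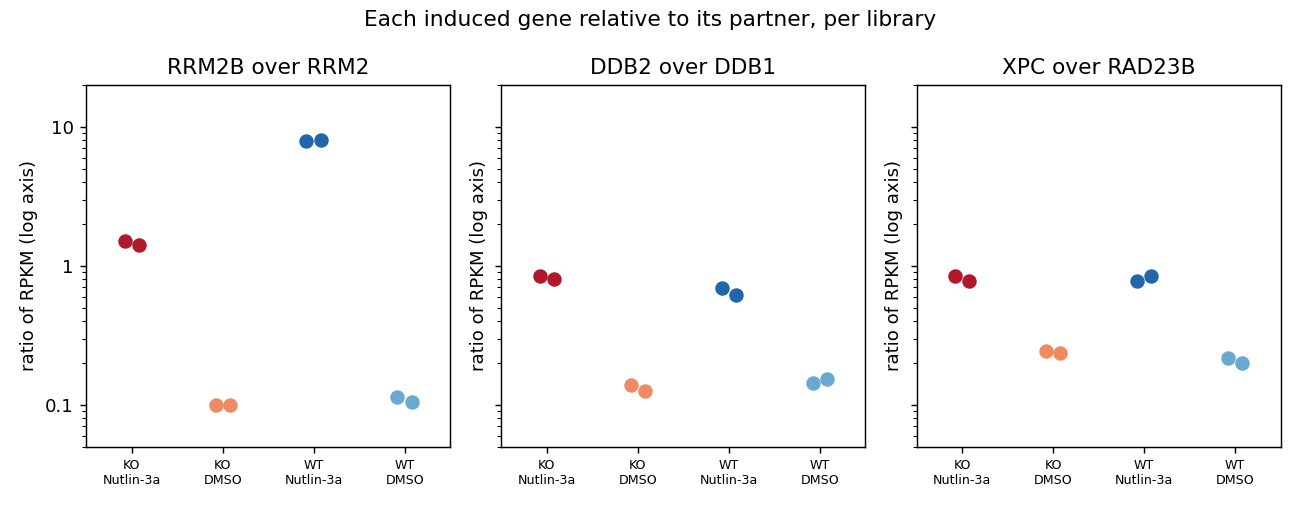
Ratio of RPKM of RRM2B to RRM2, DDB2 to DDB1 and XPC to RAD23B (vertical axes, log scale) in KO Nutlin-3a, KO DMSO, WT Nutlin-3a and WT DMSO cells, 1 point per library. The RRM2B to RRM2 ratio crosses 1 under Nutlin-3a in both genotypes and is highest in WT cells, while the other ratios stay below 1 in every library.

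The damage-sensor pairs shifted in both genotypes as well. DDB1, the partner of DDB2 in the ligase complex, and RAD23B, the partner of XPC, moved little: DDB1 had -0.09 in KO cells (adjusted p = 0.143) and rose by 0.14 in WT cells (adjusted p = 0.0159), and RAD23B fell by 0.28 in KO and by 0.23 in WT cells. DDB1 was chosen after its values were seen. DDB2 over DDB1 in RPKM was 0.845 and 0.803 in KO Nutlin-3a, 0.140 and 0.127 in KO DMSO, 0.688 and 0.621 in WT Nutlin-3a and 0.143 and 0.153 in WT DMSO libraries. XPC over RAD23B was 0.848 and 0.780 in KO Nutlin-3a, 0.245 and 0.238 in KO DMSO, 0.778 and 0.848 in WT Nutlin-3a and 0.216 and 0.199 in WT DMSO libraries. Both ratios stayed below 1 in all 8 libraries on the deposited lengths.

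POLH, polymerase eta, which copies accurately past UV-induced thymine dimers, had 166 and 161 CPM in KO Nutlin-3a cells, 53.8 and 55.1 in KO DMSO cells, 245 and 283 in WT Nutlin-3a cells and 60.9 and 55.8 in WT DMSO cells. The KO Nutlin-3a libraries lay between the DMSO libraries and the WT Nutlin-3a libraries, whose replicates were the farthest apart of the 4 POLH pairs. POLH rose by 1.59 in KO cells (SE 0.06, adjusted p = 3.43e-12), 3.001-fold, and by 2.18 in WT cells (SE 0.06, adjusted p = 2.27e-14), 4.52-fold. The response was smaller in KO cells by 0.59 (difference -0.59, SE 0.09, adjusted p = 1.13e-04), a call that held in all 19 alternatives.

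POLK, polymerase kappa, which bypasses bulky adducts on guanine, stayed within 29.5 to 32.9 CPM over all 8 libraries. It had 31.3 and 30.4 CPM in KO Nutlin-3a, 29.5 and 29.5 in KO DMSO, 30.3 and 29.5 in WT Nutlin-3a and 32.9 and 32.8 in WT DMSO cells. The fold change under Nutlin-3a was 0.06 in KO cells (95% interval -0.07 to 0.19, adjusted p = 0.452) and -0.14 in WT cells (-0.27 to -0.002, adjusted p = 0.0759), and neither was called. Per length, POLH over POLK in RPKM was 2.84 and 2.84 in KO Nutlin-3a, 0.978 and 1.00 in KO DMSO, 4.34 and 5.14 in WT Nutlin-3a and 0.992 and 0.912 in WT DMSO libraries. On these values the 2 polymerases were at near equal levels under DMSO, and POLH led in the Nutlin-3a libraries. The level of this ratio depends on the gene lengths used: the deposited RPKM imply 8412 bases for POLH and 4512 for POLK, whereas the exons of GENCODE v29 cover 3540 and 9105 bases, and its change between groups does not depend on them.

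REV3L, the catalytic subunit of polymerase zeta, which extends from bypassed lesions, had 204 and 209 CPM in KO Nutlin-3a cells, 133 and 136 in KO DMSO cells, 192 and 230 in WT Nutlin-3a cells and 108 and 102 in WT DMSO cells. Under Nutlin-3a the genotypes overlapped, while under DMSO both KO libraries lay above both WT libraries. REV3L rose by 0.62 in KO cells (SE 0.07, adjusted p = 3.55e-06), 1.54-fold, and by 1.00 in WT cells (SE 0.07, adjusted p = 9.64e-09), 2.01-fold. The response was smaller in KO cells by 0.38 (difference -0.38, SE 0.10, adjusted p = 0.00811). That call was lost in 5 of 19 alternatives, with adjusted p from 7.21e-14 to 0.107, including without WT DMSO replicate 2. MAD2L2 (REV7), the accessory subunit of the same polymerase, was not called in KO cells, at -0.14 (adjusted p = 0.271), and fell by 0.46 in WT cells; it was chosen after its values were seen.

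FANCC, which works in the core complex that ubiquitinates FANCD2 and FANCI, had 24.9 and 23.7 CPM in KO Nutlin-3a cells, 32.7 and 31.8 in KO DMSO cells, 84.6 and 81.5 in WT Nutlin-3a cells and 103 and 94.8 in WT DMSO cells. The KO libraries were far below the WT libraries, and within each genotype Nutlin-3a was below DMSO without overlap. Most genes tested also lacked overlap in these comparisons, as given above. FANCC fell by 0.41 in KO cells (SE 0.06, adjusted p = 4.70e-05) and by 0.25 in WT cells (SE 0.05, adjusted p = 5.99e-04). The difference of the responses was -0.15 (95% interval -0.33 to 0.02, adjusted p = 0.199), not called.

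**Figure D3:**
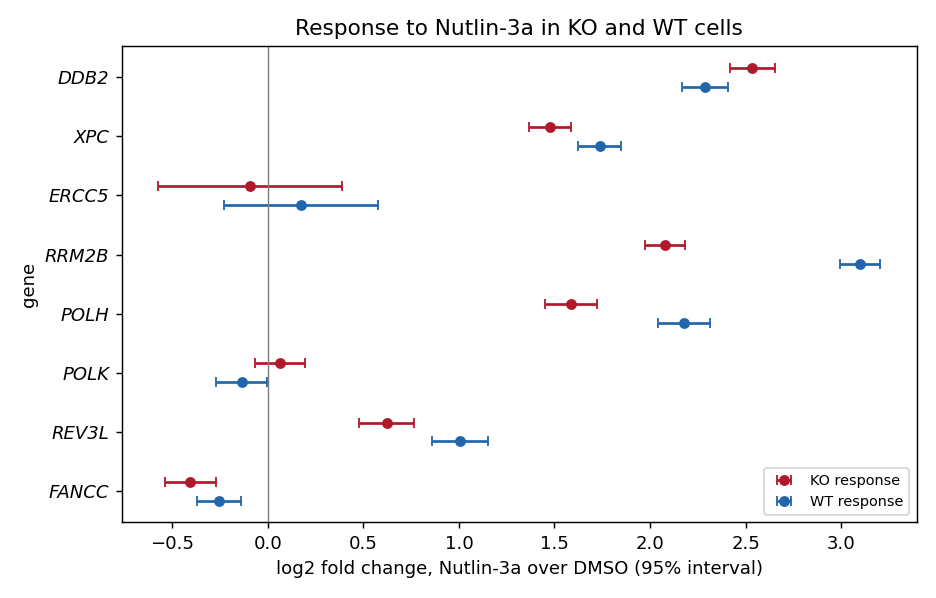
Log2 fold change of Nutlin-3a over DMSO (horizontal axis) with its 95% interval for each gene, KO response in red and WT response in blue. RRM2B and POLH have the widest gaps between genotypes, DDB2 is the one induced gene with a larger KO response, and POLK and ERCC5 have intervals near 0 or crossing it.

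Among the 5 induced genes the response was thus smaller in KO cells for XPC, POLH, REV3L and RRM2B and larger for DDB2. For the difference of the responses 5 of the 8 members were called, 1 higher and 4 lower, where 27.5% of all genes tested were called, 14.2% higher and 13.4% lower. The median difference over the 8 was -0.26, against -0.00 over all genes tested, with the same limit from how the 8 were chosen.

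KO against WT within each treatment asks how the genotypes stood before and during the drug. Under Nutlin-3a, 0 of the 8 were higher and 5 were lower in KO cells, namely XPC, POLH, RRM2B, FANCC and ERCC5, where 63.1% of all genes were called, 32.7% higher and 30.4% lower. Under DMSO, 1, REV3L, was higher and 5 were lower in KO cells, namely DDB2, POLK, RRM2B, FANCC and ERCC5, where 61.5% of all genes were called, 31.4% higher and 30.1% lower. The total of 5 called under Nutlin-3a is near the share of all genes. The split into lower and higher is less even than over all genes in both treatments, which was not tested. Under DMSO the lower calls of DDB2 and POLK did not hold in every alternative, as given below. FANCC had the largest difference among the 8, at -1.77 under Nutlin-3a (SE 0.06, adjusted p = 1.26e-14) and -1.62 under DMSO (SE 0.06, adjusted p = 2.91e-14). ERCC5 followed at -1.34 under Nutlin-3a (SE 0.21, adjusted p = 1.96e-05) and -1.08 under DMSO (SE 0.21, adjusted p = 2.07e-04). These sizes depend on the scale at this low level, since limma-trend on log2(RPKM + 1) gave -0.43 under Nutlin-3a and -0.34 under DMSO, both called (adjusted p over all alternatives 3.77e-09 to 0.00110 under Nutlin-3a and 3.46e-06 to 0.00610 under DMSO).

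RRM2B was -1.33 under Nutlin-3a (SE 0.04, adjusted p = 9.93e-15) and -0.31 under DMSO (SE 0.05, adjusted p = 6.08e-05). POLH was -0.69 under Nutlin-3a (SE 0.06, adjusted p = 2.86e-08) and -0.10 under DMSO, which was not called (95% interval -0.24 to 0.04, adjusted p = 0.208). XPC was -0.31 under Nutlin-3a (adjusted p = 2.85e-05) and -0.05 under DMSO (adjusted p = 0.461). For these 3 genes the KO difference was thus larger in size under Nutlin-3a than under DMSO, the same quantity as the difference of their responses. REV3L was 0.36 under DMSO (SE 0.07, adjusted p = 4.08e-04) and -0.03 under Nutlin-3a (95% interval -0.17 to 0.12, adjusted p = 0.752). Under Nutlin-3a the value for REV3L turned on the WT replicates, at -0.16 without WT Nutlin-3a replicate 1 and 0.11 without replicate 2, both called, in a range of adjusted p from 1.93e-04 to 0.954 over the alternatives. DDB2 was -0.20 under DMSO (SE 0.07, adjusted p = 0.0131), a call lost without KO DMSO replicate 2 or WT DMSO replicate 2 (range 0.00574 to 0.123), and 0.05 under Nutlin-3a (95% interval -0.06 to 0.15, adjusted p = 0.401). POLK was -0.15 under DMSO (adjusted p = 0.0408), lost in 13 of 20 alternatives with adjusted p from 0.0180 to 0.219, and 0.05 under Nutlin-3a (adjusted p = 0.541).

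**Figure D4:**
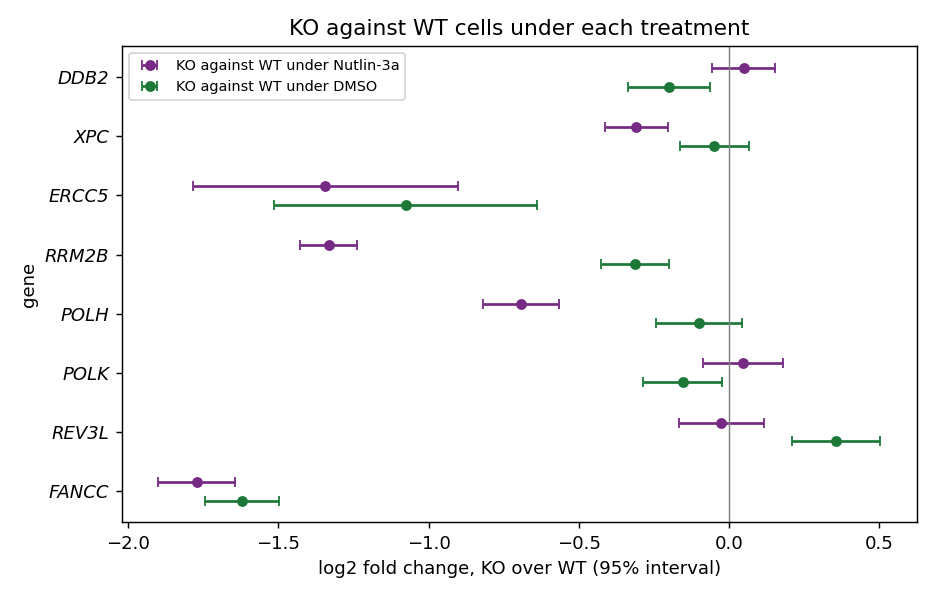
Log2 fold change of KO over WT (horizontal axis) with its 95% interval for each gene, under Nutlin-3a in purple and under DMSO in green. FANCC, ERCC5 and RRM2B are lower in KO cells under both treatments. The intervals of RRM2B, POLH, XPC, REV3L and DDB2 do not overlap between treatments, and REV3L lies above 0 under DMSO alone.

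The order of the 8 genes by the deposited RPKM, a length-scaled level, changed with treatment. The order holds for the lengths behind these values alone. These lengths differ from the GENCODE v29 exon lengths for POLH and POLK, as given above. They also differ for FANCC, at 5838 against 12809 bases, and ERCC5, at 4085 against 8242. For XPC they are 3720 against 4798 bases, and for REV3L 11071 against 12425. The lengths of DDB2 and RRM2B were not compared. In KO Nutlin-3a cells it ran DDB2 (60.4), XPC (46.3), RRM2B (26.8), POLH (20.2), REV3L (19.4), POLK (7.10), FANCC (4.32) and ERCC5 (0.338), with no overlap between neighbours. In KO DMSO cells XPC (16.3) led, followed by REV3L (12.3) and DDB2 (10.2), and POLK, POLH and RRM2B lay at 6.64, 6.57 and 6.19. In WT Nutlin-3a cells RRM2B (63.3) led, ahead of DDB2 (54.8) and XPC (53.9), whose ranges overlapped. In WT DMSO cells FANCC (16.5) and XPC (16.1) overlapped at the top, and POLK (7.08) and POLH (6.74) overlapped lower down.

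Other genes of the same routes mostly did not move the way the 5 induced genes did. Of 28 other nucleotide excision repair genes, 2 rose and 7 fell in KO cells and 4 rose and 7 fell in WT cells, with median log2 fold changes of -0.00 in KO and 0.01 in WT cells. The count that fell is near the 20.6% of all genes called lower in KO and the 29.2% in WT cells, and the WT total of 11 was 7 without WT DMSO replicate 2. The fallen ones include RPA1, RPA2 and RPA3, the subunits of the single-strand binding protein, at -0.40, -0.54 and -0.88 in KO cells and -0.76, -1.27 and -1.501 in WT cells. XPA, which verifies the lesion, was not called in either (0.05 in KO and -0.01 in WT cells; chosen after its values were seen). Of the 20 other genes of translesion synthesis and damage tolerance, 1 rose and 10 fell in KO cells, and 3 rose and 13 fell in WT cells, with medians of -0.17 in KO and -0.41 in WT cells. USP1, which removes ubiquitin from PCNA, fell by 0.90 in KO and 2.01 in WT cells, RAD18, the ligase that marks PCNA, by 1.12 in KO and 1.68 in WT cells, and POLD1, the catalytic subunit of polymerase delta, by 0.93 in KO and 1.67 in WT cells.

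Of 15 other dNTP supply genes, 4 rose and 9 fell in KO cells, and 1 rose and 10 fell in WT cells, with medians of -0.51 in KO and -1.01 in WT cells. TK1, thymidine kinase, had -2.04 in KO and -2.69 in WT cells. Of 23 other Fanconi anemia and crosslink repair genes, 2 rose and 15 fell in each genotype, with medians of -0.50 in KO and -1.03 in WT cells. BRIP1, a helicase, had -1.36 in KO and -1.94 in WT cells, and UBE2T, the ubiquitin-conjugating partner of the core complex, had -1.09 in KO and -1.96 in WT cells. The difference of the responses was called higher, meaning a smaller fall or larger rise in KO cells, for 9 of the 15 dNTP genes with 0 lower, for 13 of the 23 Fanconi genes with 1 lower, for 9 of the 20 translesion genes with 3 lower and for 5 of the 28 excision repair genes with 1 lower. Over all genes tested 14.2% were called higher and 13.4% lower, so the excision repair count is near the share of all genes. Its total of 6 was 3 without KO DMSO replicate 2 and 10 without WT Nutlin-3a replicate 1.

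**Figure D5:**
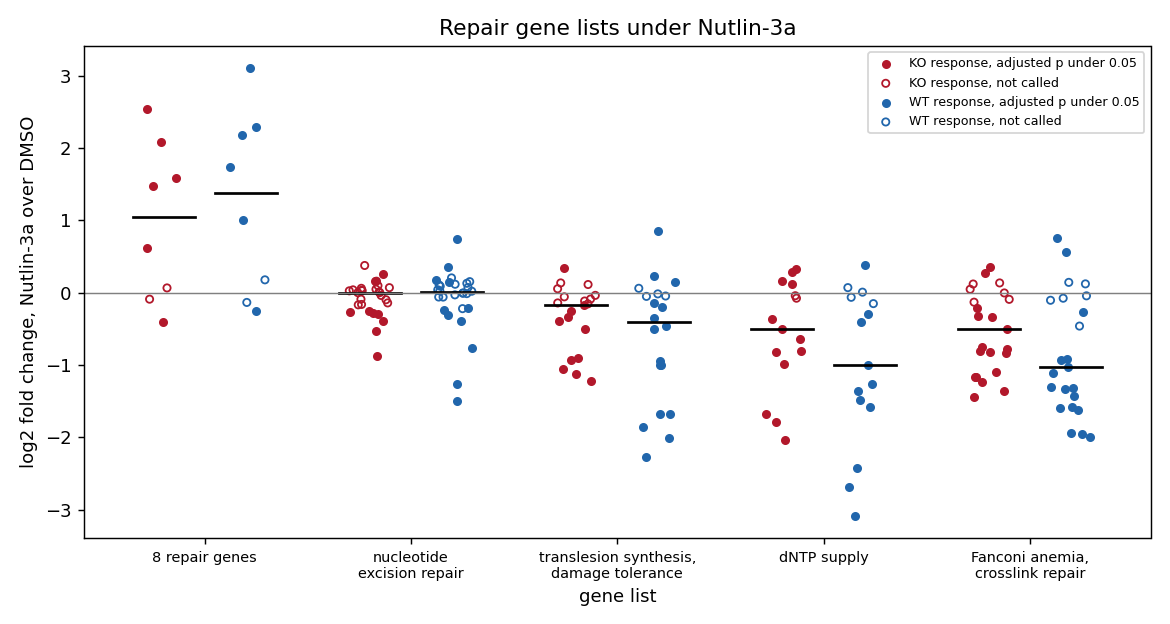
Log2 fold change of Nutlin-3a over DMSO (vertical axis) for the 8 genes and for the other genes of 4 repair lists, KO response in red and WT response in blue, filled where adjusted p is under 0.05. Black lines are medians; the 8 genes lie mostly above 0, and the dNTP supply and Fanconi lists lie mostly below it, further in WT than in KO cells.

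Over the 8 libraries, the genes most like each member were found by the root mean square (RMS) difference of centred log2 CPM, among 11933 candidates. For RRM2B they were C12orf5 (TIGAR), ZNF385A and PIDD1, at an RMS of 0.1101, 0.163 and 0.172. DDB2 was nearest to MAMDC4 (0.140), RPS27L (0.173) and KCNN4 (0.217). XPC was nearest to FBXO22 (0.0586), METTL7A (0.0885) and IER5 (0.0909), and POLH to MAST4 (0.0710), SRSF8 (0.0986) and CEP170B (0.105). REV3L was nearest to TTC21A, TRIM32 and WDR59, FANCC to SLIT2, ITGB5 and FAM107B, POLK to TIMM44, NT5C3B and DDX28, and ERCC5 to TAOK3, PEAK1 and VWA8. These likenesses are descriptions over 8 libraries that share 4 groups.

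Among the tested neighbours of the induced members, TMEM43 and TRAF3IP2-AS1 rose in both genotypes, and ACP2, LSM3 and GTPBP2 fell in both. Over all genes tested, 18.1% were called higher in KO and 29.4% in WT cells. The shares called lower were 20.6% in KO and 29.2% in WT cells. Neither neighbour of RRM2B was in the count table. ACP2, next to DDB2, had -0.32 in KO and -0.42 in WT cells. LSM3, next to XPC, had -0.58 in KO and -0.77 in WT cells, and overlaps 6.63% of the exon bases of XPC on the other strand. TMEM43, on the other side of XPC, rose by 0.20 in KO and 0.40 in WT cells. GTPBP2, which overlaps POLH, had -0.18 in KO and -0.42 in WT cells, and XPO5, on its other side, was -0.08 in KO (adjusted p = 0.176) and -0.26 in WT cells. TRAF3IP2-AS1, which overlaps REV3L on the other strand, rose by 0.54 in KO and 0.43 in WT cells. No source used here gives the strand setting of the counting, so reads from the shared bases, 0.942% of the exon bases of REV3L here and the larger share at XPC, may not be separable.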

How the data were processed

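Poly(A) RNA of 8 CHP212 libraries was made with a strand-specific kit, per the labels' protocols. Per the submitters' processing notes, the tools were HTSeq 0.8.0, Picard 2.9.4, SAMtools 1.5, TopHat2 2.1.1, Bowtie2 2.2.9.0, FastQC 0.11.5 and bcl2fastq, with build hg19 (GRCh37). No source used here gives the annotation or strand setting. The authors deposited whole read counts per gene and RPKM values, which are not scaled by TMM. Groups follow the sample titles.

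The counts were fitted with 4 group means in edgeR 4.0.16 (R 4.3.3) over 8 libraries after filterByExpr (15879 genes kept) and TMM scaling, with the robust quasi-likelihood F test and Benjamini-Hochberg adjustment over all tested genes, for 5 comparisons: Nutlin-3a against DMSO in KO and in WT, KO against WT under Nutlin-3a and under DMSO, and the difference of the 2 responses. The comparisons share libraries. No replicate pair looked like 1 library deposited more than once: their counts differed beyond sampling noise, with a chi-square per gene of 2.34 to 3.95 in 3 groups and 8.77 in WT Nutlin-3a cells. The edgeR fit was also run on simulated counts, with changes set in the WT Nutlin-3a libraries alone. That setting lacks the wide differences between genotypes seen here, so it does not show how the fit behaves with them.

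Alternatives were DESeq2 1.42.0 (size factors and Wald test), upper-quartile factors, no filter, limma 3.58.1 trend on log2(RPKM + 0.1) or log2(RPKM + 1), the replicate block, a fit of 4 libraries, other thresholds, and each library left out. A last one left out together the 3 libraries named above for counts of COL1A2, TEK or CDH1 unlike those of their replicate. Named genes are the 8 members, checks, up to 4 called genes of each list with the smallest p, the 3 genes with the most similar pattern and the nearest annotated genes; partners named besides these are marked. Not every gene that this rule takes is reported here. The members and lists were chosen with earlier results of these data known. The reference tables (RefSeq, GRCh38.p14, and GENCODE v29) are of another build than the counts and served for symbols, neighbours, exon overlap and promoter sequence.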

Additional observations from a re-analysis of the deposited data

Results flagged for a closer look

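The response to Nutlin-3a differed between KO and WT cells by edgeR's test of the difference itself for 5 of the 8 genes, given as KO response minus WT response in log2 units. RRM2B had -1.02, POLH -0.59, REV3L -0.38 and XPC -0.26, each a smaller rise in KO cells, and DDB2 had 0.25, a larger rise in KO cells. The call for RRM2B and POLH held in all alternatives, and those for REV3L, XPC and DDB2 did not.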

How the results depend on the processing

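The 5 rises and the fall of FANCC under Nutlin-3a were called in both genotypes in every library left out, 6 members each time. The replicate block, tried because replicate numbers are shared, gave 6 members in either response, 5 between genotypes under Nutlin-3a and 6 under DMSO, and 5 for the difference of the responses, the same counts as without it. Same-numbered libraries had correlations of deviations from -0.0226 to 0.232, so the numbers were not taken to pair the samples. For the difference of the responses, 5 members became 3 under each limma-trend fit on RPKM, 3 at an adjusted p threshold of 0.01 and 2 at a change above 1.5-fold, and ranged from 2 to 5 with 1 library left out, lowest without WT DMSO replicate 2 and at 3 without KO Nutlin-3a replicate 2. KO against WT under DMSO gave 2 members at 1.5-fold and 4 to 6 with 1 library left out. Under Nutlin-3a it gave 5 to 6.

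Reversed signs were small. ERCC5 in KO cells was 0.031 without KO DMSO replicate 1 and ranged from there to -0.21 with 1 library left out. REV3L, KO against WT under Nutlin-3a, was 0.011 with upper-quartile factors, 0.070, 0.066 and 0.070 under limma-trend with pseudocounts 0.1 and 1 and without the filter, and from -0.16 to 0.11 with 1 library left out, the ends being without WT Nutlin-3a replicate 1 and without replicate 2. XPC, KO against WT under DMSO, was 0.015, 0.014 and 0.015 under the same 3 fits. Over the 8 members and all alternatives, 44 single calls were lost, 6 were gained and 9 values turned sign. The cause was not tested, though RPKM carries no TMM scaling and the median of all genes in KO against WT under Nutlin-3a was 0.11 with a pseudocount of 0.1, 0.075 with 1 and 0.068 without the filter, against 0.018 in edgeR. DDB2 passed in that comparison under the 3 limma-trend fits (0.14, adjusted p up to 0.0390). POLH passed in KO against WT under DMSO with the 3 libraries left out, a fit whose spread rests on the KO DMSO pair alone.

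Over all genes, a 1.5-fold minimum left 1818 of 6141 calls in the KO response, 4152 of 9307 in WT, 4876 of 10012 between genotypes under Nutlin-3a, 4404 of 9772 under DMSO, and 1514 of 4373 for the difference, where a threshold of 0.01 left 2744. Of the list counts, 20 moved by over 1.5 times, mostly at 1.5-fold. The excision repair list had 3 calls in the difference without KO DMSO replicate 2 and 10 without WT Nutlin-3a replicate 1, against 6, and 7 in the WT response without WT DMSO replicate 2, against 11. The fit of 4 libraries gives no difference of responses. ERCC5, with 45 to 100 reads per library, has the widest intervals of the 8.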
